A study of Homo sapiens with 6 samples.

Results

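The genes described here are 10 members of the Hippo pathway in the human prostate cancer cell line LNCaP: the coactivators YAP1 and WWTR1 (which encodes TAZ), their DNA-binding partners TEAD1 and TEAD3, the kinases LATS1 and LATS2, the regulators AMOTL2 and AJUBA, and the target genes CYR61 and CTGF. They were taken by symbol from a table of read counts for 17297 genes, and all 10 were in it; the list was drawn up with earlier results of these data known. LNCaP cells stably expressing pBabe-vector (the empty retroviral vector) were compared with LNCaP cells stably expressing pBabe-GNA13, which carries the gene for the G protein subunit Gα13, in 3 biological replicates each. A single stable line stands for each condition, and its replicates are cultures of that line, grown for 48 h in 10-cm plates before RNA was extracted.

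In the Hippo pathway the kinases MST1 and MST2 (encoded by STK4 and STK3) activate LATS1 and LATS2, which phosphorylate YAP and TAZ and hold them in the cytoplasm. Unphosphorylated YAP and TAZ enter the nucleus and, bound to TEAD factors, turn on genes such as CTGF, CYR61 and ANKRD1. The pathway responds to cell density and attachment, and G protein-coupled receptors are known to act on it. Much of that control is exerted by phosphorylation and localization, which read counts do not measure.

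Library totals lay between 33002160 and 40628970 counts, and a count of 3 in a library, taken as the floor, equalled 0.0715 to 0.0935 CPM (counts scaled to library size, with TMM factors as for all CPM below). GNA13 was higher in each pBabe-GNA13 library (747 to 886 CPM) than in each pBabe-vector library (65.4 to 76.7 CPM; log2 fold change 3.54, edgeR adjusted p = 9.12e-05). Of the prostate luminal markers, 10 of 10 had a mean of at least 1 CPM, against 4 of 8 basal markers, and the defining basal factor TP63 had 9 reads over the 6 libraries. Libraries of the same replicate number moved together across the lines, as did the libraries tagged std, so 3 library pairs (std, replicate 2, replicate 3) were used as a block in a second fit. Plates were stated to be harvested at a set confluency. What the libraries of a pair share, such as a day of culture or a preparation, was not found in the sources used here.

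Both coactivators were expressed, YAP1 far above WWTR1. Divided by the length of its exons, YAP1 was the most abundant of the 10 genes, at 20.7 ± 3.67 CPM per kb of exon (SD, n = 6 libraries), and WWTR1 the second lowest, at 0.737 ± 0.279 CPM per kb. Within each library YAP1 was 21.9 to 40.8 times WWTR1 on this scale. Between them in level lay the kinase LATS1 (8.26 CPM per kb), the LIM protein gene AJUBA (7.31), TEAD3 (5.31), TEAD1 (4.55), CYR61 (2.98), LATS2 (2.80) and AMOTL2 (0.892, all in CPM per kb). CTGF stood last, at 0.0465 CPM per kb.

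Several neighbours in this order could not be separated. The ranges over the 6 libraries overlapped between LATS1 and AJUBA, AJUBA and TEAD3, TEAD3 and TEAD1, CYR61 and LATS2, and AMOTL2 and WWTR1. They did not overlap between YAP1 and LATS1, TEAD1 and CYR61, LATS2 and AMOTL2, or WWTR1 and CTGF. LATS1 was therefore the more abundant LATS kinase in these cells (7.31 to 9.12 against 1.96 to 3.40 CPM per kb). Among all TEAD genes, TEAD4 had the highest mean (7.59 CPM per kb) and TEAD2 the lowest (1.76 CPM per kb). The ranges of TEAD4 and TEAD3 overlapped (5.87 to 10.7 against 4.59 to 5.94 CPM per kb), though within each library TEAD4 was the higher. The order rests on exon length: in CPM, TEAD1 was above TEAD4 in each library (40.98 to 53.5 against 13.3 to 24.4). The target genes CYR61 and CTGF, both secreted matricellular proteins of the CCN family, were expressed at unlike levels: CYR61 had 2359 reads over the 6 libraries and CTGF 24.

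**Figure D1:**
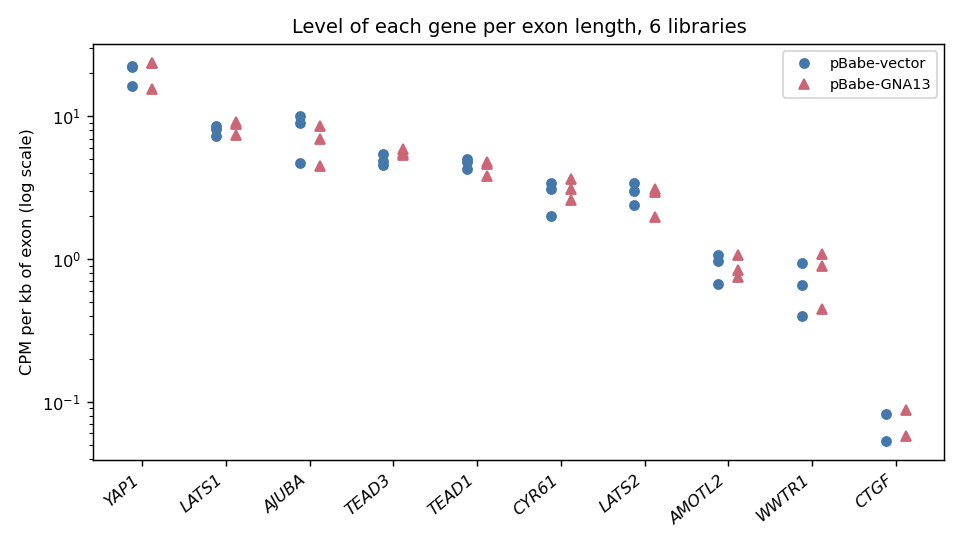
Level of each of the 10 genes in CPM per kb of exon (vertical axis, log scale), ordered from highest to lowest, with 1 point per library for pBabe-vector (circles) and pBabe-GNA13 (triangles). YAP1 lies above every other gene in each library and CTGF below; the CTGF libraries at 0 reads (replicate 2 of both lines) cannot be drawn on a log axis.

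The first comparison asked whether the RNA of these genes differed between pBabe-GNA13 and pBabe-vector. With the line as the only term, 0 of 10 passed an adjusted p of 0.05 (edgeR's quasi-likelihood test, Benjamini-Hochberg over all genes), as did 0.139% of all genes, and 0 of 10 had an unadjusted p under 0.05, against 8.46% of all genes. The values of the lines overlapped for each of the 10 genes, and the share of all genes that overlap was not counted. DESeq2 and limma-trend also called 0 of 10. Of the 10 log2 fold changes, 6 were above 0 and 4 below, with a median of 0.05, against −0.0013 over the 17297 genes. With the library pairs as a block 1 of 10 passed, AJUBA, against 19.7% of all genes and 23.3% of genes with a mean of at least 1 CPM. For single genes, exact permutation tests (two-sided) gave p-values of 0.20 to 0.90; 3 libraries a line allow none under 0.10. In bulk RNA, fewer cells that express a gene and less RNA per cell cannot be told apart.

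For the coactivator YAP1 the pBabe-GNA13 libraries held 149, 150 and 99.0 CPM (here and below in the order std, replicate 2, replicate 3) and the pBabe-vector libraries 143, 139 and 103 CPM. The replicate 3 libraries of both lines were the lowest, and the lines overlapped. The log2 fold change was 0.04 (95% interval −0.41 to 0.50), and 0.04 (−0.07 to 0.14) with the block, which bounds a difference in YAP1 RNA more narrowly. WWTR1, the gene for the paralogue TAZ, held 7.44, 9.05 and 3.75 CPM in pBabe-GNA13 and 7.87, 5.49 and 3.33 CPM in pBabe-vector. Its highest library was replicate 2 of pBabe-GNA13, and the blocked log2 fold change was 0.27 (−0.02 to 0.55, edgeR adjusted p = 0.195). Without the std pair it was 0.49 and passed (edgeR adjusted p = 0.0156), and without the replicate 2 pair it was 0.02 (edgeR adjusted p = 0.977).

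The TEAD genes encode the factors through which YAP and TAZ reach DNA. TEAD1 held 49.8, 40.98 and 50.9 CPM in pBabe-GNA13 and 51.0, 45.8 and 53.5 CPM in pBabe-vector. It was lower in pBabe-GNA13 in 3 of 3 pairs, by little (blocked log2 fold change −0.09, edgeR adjusted p = 0.311). TEAD3 held 17.0, 18.1 and 16.4 CPM in pBabe-GNA13 and 14.95, 16.6 and 13.99 CPM in pBabe-vector. It was higher in 3 of 3 pairs, with the lines overlapping only where replicate 2 of pBabe-vector reached above replicate 3 of pBabe-GNA13, and did not pass (blocked log2 fold change 0.18, edgeR adjusted p = 0.133).

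The LATS kinases are the inhibitory step onto YAP and TAZ. LATS1 held 75.7, 77.5 and 63.1 CPM in pBabe-GNA13 and 72.9, 69.6 and 62.1 CPM in pBabe-vector. It was higher in 3 of 3 pairs (blocked log2 fold change 0.08, edgeR adjusted p = 0.340). LATS2, itself described as a target of YAP, held 16.5, 17.5 and 10.99 CPM in pBabe-GNA13 and 19.1, 16.7 and 13.4 CPM in pBabe-vector. It was lower in 2 of 3 pairs (blocked log2 fold change −0.14, edgeR adjusted p = 0.282).

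AJUBA encodes a LIM-domain protein that binds LATS kinases and restrains them, and its levels were 50.7, 41.2 and 26.3 CPM in pBabe-GNA13 and 59.5, 52.8 and 27.6 CPM in pBabe-vector. Each pBabe-GNA13 library lay below the pBabe-vector library of its pair, while the lines overlapped across pairs. Without the block the log2 fold change was −0.25 ± 0.32 (SE, edgeR adjusted p = 0.954). With it the value was −0.23 ± 0.06 (SE, 95% interval −0.35 to −0.10) and AJUBA fell (edgeR adjusted p = 0.00800). The call was lost without the replicate 2 pair (log2 fold change −0.16, edgeR adjusted p = 0.145), was kept without the std pair (−0.22, edgeR adjusted p = 0.0248) and without the replicate 3 pair (−0.28, edgeR adjusted p = 0.00364), and was kept with each chromosome centred on its median (−0.19, edgeR adjusted p = 0.0410). AMOTL2, a junctional scaffold that binds YAP and is also a YAP target, held 5.46, 6.87 and 4.83 CPM in pBabe-GNA13 and 6.25, 6.97 and 4.30 CPM in pBabe-vector. Its blocked log2 fold change was −0.03 (−0.28 to 0.23).

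Neither target gene passed between the lines. CYR61 held 11.4, 9.55 and 13.5 CPM in pBabe-GNA13 and 11.5, 7.47 and 12.7 CPM in pBabe-vector. The replicate 2 libraries of both lines were the lowest, and the blocked log2 fold change was 0.14 (−0.07 to 0.34, edgeR adjusted p = 0.387). CTGF had 5, 0 and 7 reads in the pBabe-GNA13 libraries and 8, 0 and 4 reads in the pBabe-vector libraries. At this depth a difference in CTGF between the lines was not detectable unless large, since the interval of its log2 fold change ran from −2.56 to 2.66.

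**Figure D2:**
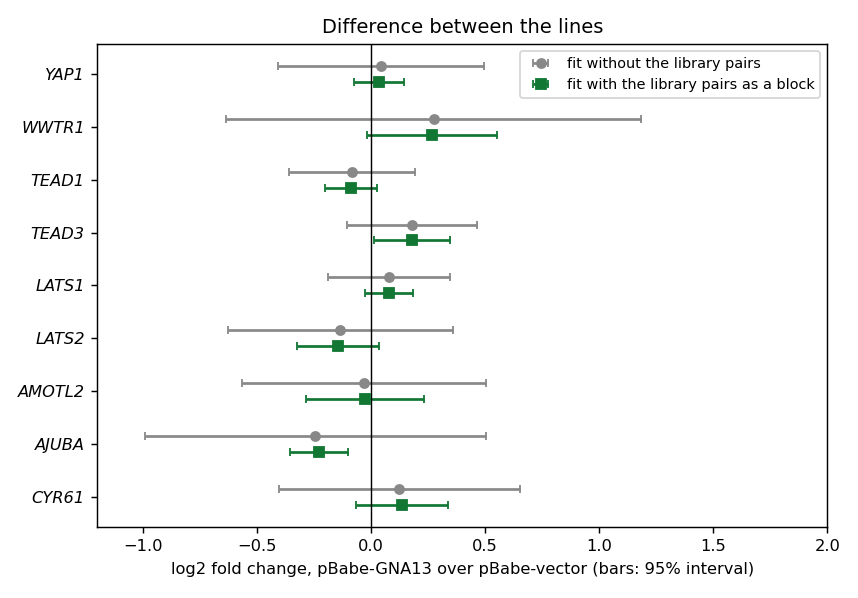
Log2 fold change of pBabe-GNA13 over pBabe-vector (horizontal axis) for the 9 genes with a mean of at least 1 CPM, in the fit without the library pairs (circles) and with the pairs as a block (squares), with 95% intervals. The intervals of the fit without the pairs all cross 0; with the block those of AJUBA and TEAD3 do not, and AJUBA alone passed adjustment over all genes. CTGF (24 reads) is not drawn.

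The same genes differed more between the library pairs than between the lines. Tested for any difference between the 3 pairs (edgeR's F test with the line in the model), 9 of 10 passed an adjusted p of 0.05, against 47.4% of all genes. Among genes with a mean of at least 1 CPM the share was 8 of 9 (88.9%) for these genes and 56.5% for all. The exception was TEAD3 (edgeR adjusted p = 0.261). In the replicate 3 pair both libraries were the lowest of the 6 for YAP1, WWTR1, LATS1, LATS2, AMOTL2 and AJUBA, and the highest for CYR61. The share of all genes with both replicate 3 libraries lowest or highest was not counted. On the replicate 2 and replicate 3 pairs alone, 44.8% of all genes passed. The median log2 difference between replicate 3 and replicate 2 was −0.01 over 14059 genes, of which 7174 were lower in replicate 3. TMM scaling holds such a median near 0, so it cannot show whether genes as a whole shifted in 1 direction. That median does not give the share of genes at an extreme.

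**Figure D3:**
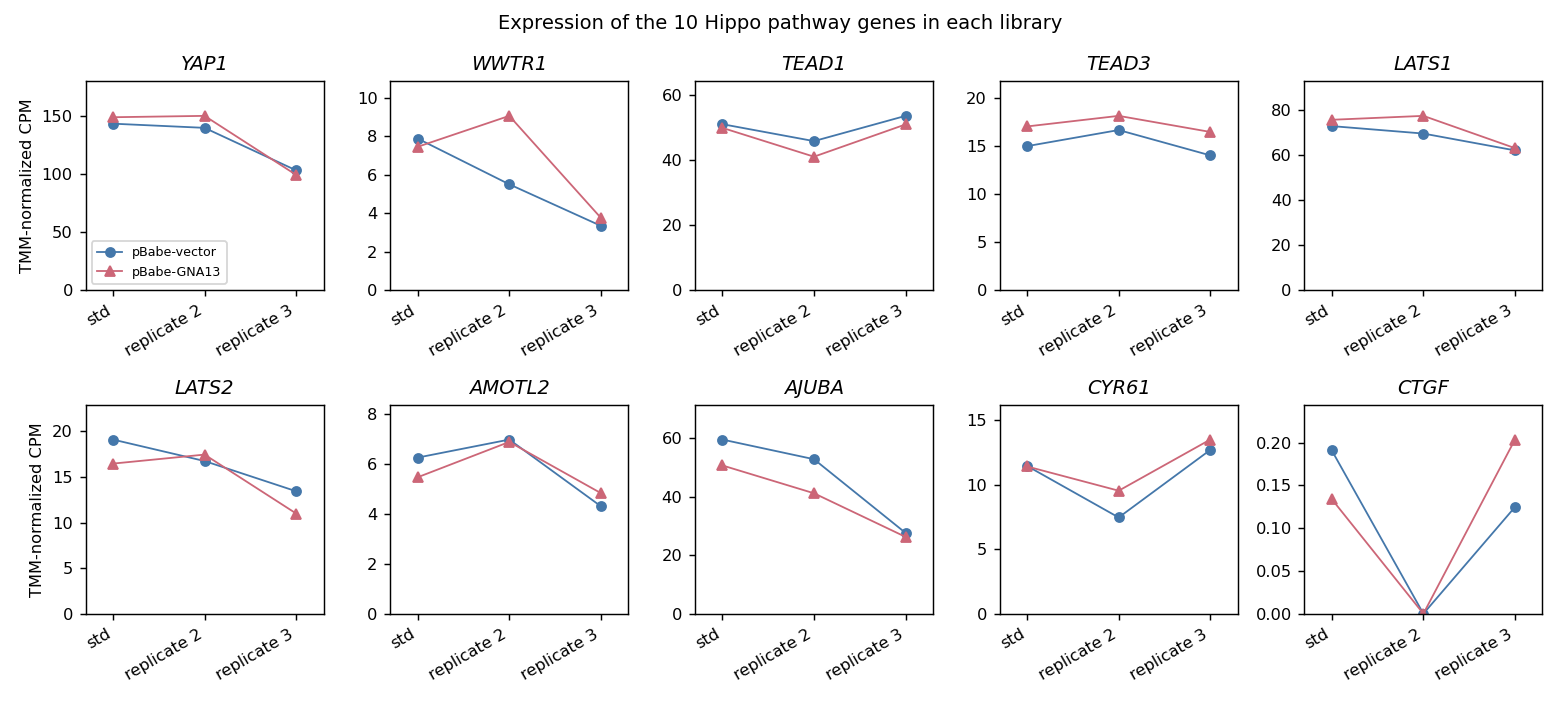
TMM-normalized CPM (vertical axes, each starting at 0) of the 10 genes in the std, replicate 2 and replicate 3 libraries of pBabe-vector (circles) and pBabe-GNA13 (triangles), with lines joining libraries of the same cell line. In both lines YAP1, WWTR1, LATS2 and AJUBA are lowest in replicate 3, whereas CYR61 is highest there and CTGF is at 0 in both replicate 2 libraries. From std to replicate 2 the lines part for some genes: WWTR1 rises in pBabe-GNA13 and falls in pBabe-vector.

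Both coactivators were lower in replicate 3 than in replicate 2. The log2 difference (replicate 3 minus replicate 2, both lines together) was −0.52 ± 0.07 (SE) for YAP1 (edgeR adjusted p = 1.08e-07 over the 3 pairs) and −1.02 ± 0.18 for WWTR1 (edgeR adjusted p = 1.08e-05). On the CPM scale the mean of YAP1 was 100.9 in replicate 3, 145 in replicate 2 and 146 in std, so replicate 3 stood apart from the other pairs. Of the other pathway genes, AJUBA had the smallest adjusted p (4.60e-11 by edgeR), with a log2 difference of −0.79 ± 0.08, and it also separated std from replicate 2 (0.23 ± 0.07). LATS2 (−0.49 ± 0.11, edgeR adjusted p = 0.000236) and AMOTL2 (−0.60 ± 0.16, edgeR adjusted p = 0.00833) were lower in replicate 3 as well. LATS1 moved less (−0.23 ± 0.06, edgeR adjusted p = 0.00324).

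TEAD1 and the target genes went the other way. TEAD1 was lowest in both replicate 2 libraries (log2 difference 0.27 ± 0.07, edgeR adjusted p = 0.00432). CYR61 had a mean of 8.51 CPM in replicate 2, 11.4 CPM in std and 13.1 CPM in replicate 3, and its log2 difference between replicate 3 and replicate 2 was 0.63 ± 0.12 (edgeR adjusted p = 0.000417). The replicate 3 and std pairs were not separated for CYR61 (std minus replicate 3, −0.19, 95% interval −0.43 to 0.05), so the difference lay with the low replicate 2 pair.

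CTGF was at 0 in both replicate 2 libraries, with 13 reads in the std pair and 11 in the replicate 3 pair. Set against the floor of 3 reads in each replicate 2 library, its level was 1.86-fold higher in std and 1.87-fold higher in replicate 3 (edgeR adjusted p = 0.0474 over the 3 pairs). These ratios leave out the counting error of the std and replicate 3 reads. Of the other YAP/TAZ target genes with 10 to 50 reads in all, 3 of 5 were likewise at 0 in both replicate 2 libraries: F3 (tissue factor, 27 reads), NT5E (the ectonucleotidase CD73, 34 reads) and TGFB2 (16 reads). Of the 929 genes of the table with 10 to 50 reads, 6.46% were at 0 in both replicate 2 libraries, 1.72% in both replicate 3 libraries and 0.431% in both std libraries. Of the 14872 genes with over 100 reads, 0.0874% were at 0 in both replicate 2 libraries, among them 2 markers of other cell types. KRT5 (a basal keratin) had 3.08, 0 and 3.72 CPM in pBabe-GNA13 and 0.572, 0 and 0.592 CPM in pBabe-vector. COL1A2 (a collagen of stromal cells) had 2.57, 0 and 2.53 CPM in pBabe-GNA13 and 0.0477, 0 and 0.0935 CPM in pBabe-vector. KRT5 is 1 of 8 basal and COL1A2 1 of 9 stromal markers in the table. They were singled out after their values were seen. With few reads in all, TP63 (9 reads) and KRT15 (3 reads) of the basal markers and DCN (9 reads) of the stromal markers were also at 0 in both replicate 2 libraries. KRT15 was at 0 in both replicate 3 libraries too. Of the other stromal markers with few reads, POSTN (6 reads) was at 0 in both replicate 3 libraries and PDGFRA (4 reads) in both std libraries.

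The summed level of the 8 basal markers was 14.97 to 22.5 CPM in std, 16.5 to 18.9 CPM in replicate 2 and 17.2 to 26.1 CPM in replicate 3, and that of the 9 stromal markers 29.0 to 30.1, 19.7 to 30.4 and 17.5 to 22.9 CPM. The 4 neuroendocrine markers in the table summed to 28.4 to 38.8 CPM in std, 61.3 to 63.5 CPM in replicate 2 and 36.9 to 56.9 CPM in replicate 3. The 10 luminal markers also moved with the pairs, summing to 6824 to 7220 CPM in std, 8273 to 9239 CPM in replicate 2 and 5569 to 6452 CPM in replicate 3. The part of these markers in the differences between pairs was not tested.

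These differences depended on which pair was in the fit. Without the replicate 3 pair 2 of 10 genes passed, AJUBA (edgeR adjusted p = 0.0324) and CYR61 (0.0143), against 18.1% of all genes. Without the replicate 2 pair 5 of 10 passed (YAP1, WWTR1, LATS1, LATS2 and AJUBA, against 35.1% of all genes), and CYR61 (edgeR adjusted p = 0.180), TEAD1 (0.614), AMOTL2 (0.0739) and CTGF (1) did not. Without the std pair 9 of 10 passed, against 44.8%. With limma-trend, 4 of 10 passed (YAP1, TEAD1, AJUBA and CTGF), against 25.7%.

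**Figure D4:**
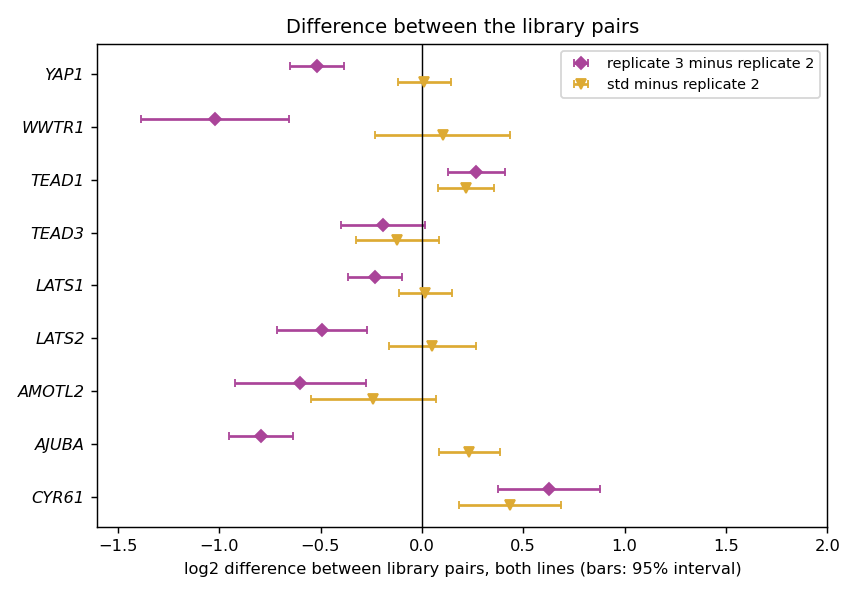
Log2 difference between library pairs (horizontal axis), both lines together, for the 9 genes with a mean of at least 1 CPM: replicate 3 minus replicate 2 (diamonds) and std minus replicate 2 (triangles), with 95% intervals. The replicate 3 intervals lie below 0 for YAP1, WWTR1, LATS1, LATS2, AMOTL2 and AJUBA and above 0 for TEAD1 and CYR61; the std intervals exclude 0 for TEAD1, AJUBA and CYR61.

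TEAD factors bind the word GGAATG, and the promoters of the genes were searched for it to show where it lies in these genes. In the 250 bases before each start (RefSeq, GRCh38.p14), read on both strands, 11.9% of 35116 windows held it and 29 windows (0.0826%) held it at least 3 times. Windows were at hand for 8 of the 10 genes, and not for CYR61 and TEAD1. CTGF, the target gene at 0 in replicate 2, held it 3 times, 169, 104 and 95 bases before its start. YAP1 held it once, 162 bases before its start. AMOTL2 (69 bases before an internal start, on the opposite strand) and AJUBA (59 bases before an internal start) held it once each, and LATS1, LATS2, TEAD3 and WWTR1 did not hold it in their windows. The CArG box, the binding word of serum response factor, stood in 1.16% of all windows and in 0 of the 12 windows of these genes. With so low a share in all windows, 12 windows cannot show a lack of it. The CTGF window (chr6:131951373-131951622, minus strand, just upstream of the annotated gene) and the YAP1 window (chr11:102110197-102110446, plus strand, upstream of the gene and within an antisense long noncoding RNA in Gencode 44) are shown because they hold the word in a target and in its coactivator, with GGAATG in capitals.
CTGF: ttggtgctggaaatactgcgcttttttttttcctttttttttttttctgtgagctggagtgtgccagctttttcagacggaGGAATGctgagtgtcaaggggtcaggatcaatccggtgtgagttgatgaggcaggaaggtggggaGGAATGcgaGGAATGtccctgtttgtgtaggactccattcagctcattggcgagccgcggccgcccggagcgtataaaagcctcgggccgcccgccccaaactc
YAP1: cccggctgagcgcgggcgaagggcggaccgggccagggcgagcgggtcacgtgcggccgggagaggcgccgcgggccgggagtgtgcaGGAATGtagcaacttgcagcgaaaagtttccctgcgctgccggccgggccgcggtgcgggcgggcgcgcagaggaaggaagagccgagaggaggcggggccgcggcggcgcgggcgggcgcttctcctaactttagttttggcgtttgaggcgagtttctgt
A match of letters is a description of the window and does not show that a TEAD factor was bound there.

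Of 37 other Hippo pathway genes in the table, 0 passed between the lines without the block (edgeR) and 5 had an unadjusted p under 0.05, against 8.46% of all genes. With the block 12 passed, 6 higher and 6 lower in pBabe-GNA13, against 19.7% of all genes and 23.3% of genes averaging 1 CPM or more. MOB1A, an adaptor that activates LATS kinases, had 58.0, 63.0 and 55.2 CPM in pBabe-GNA13 and 35.6, 39.8 and 33.9 CPM in pBabe-vector. Each pBabe-GNA13 library was above each pBabe-vector library, and the log2 fold change was 0.69 (edgeR adjusted p = 0.0975 without the block, 5.13e-10 with it). AMOTL1, an angiomotin family scaffold like AMOTL2, had 5.89, 4.76 and 7.50 CPM in pBabe-GNA13 and 2.84, 2.63 and 5.02 CPM in pBabe-vector. It rose only with the block (log2 fold change 0.82, edgeR adjusted p = 9.00e-05, against 0.490 without).

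Upstream kinases and scaffolds moved in both directions in the blocked fit. WWC2, a KIBRA family scaffold, fell (log2 fold change −0.61, edgeR adjusted p = 0.00269), as did the phosphatase gene PTPN14 (−0.35, edgeR adjusted p = 0.00370). STK4 fell by 0.22 and STK3 by 0.20 (edgeR adjusted p = 0.00510 and 0.0285). TAOK3, an MST-activating kinase gene, rose (0.27, edgeR adjusted p = 0.000647), and so did TEAD4 (0.33, edgeR adjusted p = 0.00349). TAOK3 and TEAD4 lie on chromosome 12, whose genes had a median of 0.29 in this fit, and STK4 on chromosome 20, with a median of −0.21. With each chromosome centred on its median, 5 of the 37 passed, a share near the 13.9% of all genes in that fit: MOB1A (0.62), AMOTL1 (0.87), WWC2 (−0.57), PTPN14 (−0.38) and VGLL4, a TEAD-binding corepressor gene (0.21). VGLL4 did not pass in the uncentred blocked fit without the replicate 2 pair (0.15, edgeR adjusted p = 0.149) or without the std pair (0.16, 0.0771). TAOK3 (−0.03), TEAD4 (0.04), STK4 (−0.0082) and STK3 (−0.15) did not pass there, and STK3 and PTPN14 did not pass without the replicate 2 pair (−0.19 and −0.25, edgeR adjusted p = 0.134 and 0.0866), nor STK3 and STK4 without the replicate 3 pair (−0.19 and −0.18, edgeR adjusted p = 0.169 and 0.112). NF2 (merlin, −0.06, edgeR adjusted p = 0.536), SAV1 (0.09, 0.383) and TEAD2 (0.09, 0.690) did not pass with the block.

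Between the library pairs, 20 of these 37 genes (54.1%) passed, near the 47.4% of all genes. TEAD2 was lower in replicate 3 than in replicate 2, as WWTR1 was (log2 difference −1.07, edgeR adjusted p = 1.29e-05 over the 3 pairs). TEAD4 and NF2 were higher there (0.55, edgeR adjusted p = 4.29e-05, and 0.38, edgeR adjusted p = 7.90e-05). The TEAD genes thus differed in direction between these pairs: TEAD1 and TEAD4 were higher in replicate 3 and TEAD2 lower.

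Of 18 other YAP/TAZ target genes, 9 had a mean of at least 1 CPM, and 0 passed between the lines without the block. ANKRD1 had 3 reads over the 6 libraries, too few to compare. AXL, a receptor tyrosine kinase gene, had 44 reads and did not pass (blocked log2 fold change 0.57 ± 0.64, SE, edgeR adjusted p = 0.612). With the block 6 of 18 passed, 4 higher and 2 lower, against 19.7% of all genes. IGFBP3, an insulin-like growth factor binding protein, had 2.86, 3.03 and 6.45 CPM in pBabe-GNA13 and 4.48, 5.70 and 15.2 CPM in pBabe-vector. It fell in the blocked fit (log2 fold change −0.97, edgeR adjusted p = 5.01e-06, against 0.688 without). CRIM1, a transmembrane regulator of growth factor signals, had 2.78, 2.88 and 2.59 CPM in pBabe-GNA13 and 0.906, 1.33 and 1.87 CPM in pBabe-vector. Its groups did not overlap (log2 fold change 1.05, edgeR adjusted p = 0.000839 with the block, 0.344 without). GADD45A (0.30, edgeR adjusted p = 0.00931), RBMS3 (0.85, edgeR adjusted p = 0.0366) and NT5E also rose, the last on 34 reads and not without the std pair (edgeR adjusted p = 0.0968), and PTPN14, which stands in both lists, fell. GADD45A was lost without the replicate 2 pair (0.11, edgeR adjusted p = 0.469), and RBMS3 with any pair left out (0.80 to 0.94, edgeR adjusted p 0.102 to 0.131). The rise of NT5E lay in the std and replicate 3 libraries. COL1A2 and KRT5 were also higher in pBabe-GNA13 with the block (5.13, edgeR adjusted p = 2.14e-08, and 2.52, edgeR adjusted p = 7.20e-07). The stromal marker ACTA2 went the other way (−1.44, edgeR adjusted p = 2.76e-07). With the block 2 of 9 stromal markers passed as higher and 1 as lower, and 2 of 8 basal markers as higher and 0 as lower. Of the 10 luminal markers 5 passed as higher and 0 as lower, and of the 4 neuroendocrine markers 0 as higher and 2 as lower. The share of all genes that passed in either direction was 19.7%. The part of these markers in the rise of NT5E was not tested. Between the pairs 7 of 18 target genes passed (38.9%), under the 47.4% of all genes.

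Genes that followed the target genes over the 6 libraries were ranked by Pearson's r of log2 CPM among genes with a mean of at least 1 CPM. Closest to CYR61 were MEPCE (r = 0.995), NUP62CL (0.994), NAF1 (0.993), MTBP (0.993) and INO80C (0.991). Closest to CTGF were ZNF563 (0.993), SNORD17 (0.993), CEP135 (0.991), CTD-3193O13.12 (0.991) and PCGF6 (0.99). CTGF itself lay under the 1 CPM asked of these genes, with 24 reads in all, so its values of r rest on few reads. With 6 libraries in 3 pairs and 14058 candidates for CYR61 such values are a description of likeness, and the lists have no gene in common.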

How the data were processed

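RNA of LNCaP cells was sequenced as paired reads of 150 nucleotides. Per the Supplementary Methods, the authors checked reads with FastQC 0.11.7, aligned them with STAR to Gencode 38 and counted them with featureCounts. The deposited values are whole-number read counts for 17297 gene symbols, although the table is named for CPM. The STAR version, any gene filter and the use of strand are not given in the sources used here, so reads of a gene and of an overlapping antisense gene cannot be told apart. All 6 columns were used. The members and gene lists were chosen with earlier results of these data known.

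Counts were scaled by TMM and tested over the whole table, low counts included, with edgeR 4.0.16 (quasi-likelihood, R 4.3.3), with the line as the only term. A gene passed, or was called, at a Benjamini-Hochberg adjusted p under 0.05. Log2 CPM used a prior count of 2. A second fit took the library pair as a block, and an F test of the pair terms compared the pairs. Of the pBabe-GNA13 columns, the one tagged std carries the number of another column and was tied to its line only. Deviations from the line means correlated at 0.603 (std), 0.729 (replicate 2) and 0.841 (replicate 3) within pairs and at −0.692 to 0.0579 between them, over 14059 genes. DESeq2 1.42.0 and limma 3.58.1 served as alternatives. The test was checked on simulated counts.

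Besides the 10 members, the text names genes of each list that passed either fit (at most 6 per list by blocked p), TEAD2, TEAD4, STK3, STK4, NF2, SAV1, ANKRD1, AXL and GNA13 in every case, and the 5 genes most like CYR61 and the 5 most like CTGF. A further list of genes is not reported here. KRT5, KRT15, COL1A2, DCN, ACTA2, POSTN, PDGFRA, TP63, F3, TGFB2 and VGLL4 were named after their values were seen. Exon lengths and positions are from Gencode 44 (GRCh38). Symbols were matched to annotation for 14397 genes, older symbols through RefSeq synonyms.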

Additional observations from a re-analysis of the deposited data

How the results depend on the processing

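The replicates of each line are cultures of a single stable line, so p-values rest on the spread between cultures. In the fit with the pairs they rest on what is left of it after pair and line. The floors cover counting error only (the reads carry no molecular identifiers). The intervals of the log2 fold changes and log2 differences come from the edgeR fits. Without the block they include the spread between cultures. With the block, and for differences between pairs, they include only the spread left after pair and line. No pair was repeated, so the intervals between pairs do not cover the spread of such a repeat. The reads of CTGF (24) and ANKRD1 (3) left wide intervals between the lines. Which members passed depended most on the pairing. With the library pairs as a replicate block, 1 member passed, 0 without the replicate 2 pair, 1 without the replicate 3 pair, 2 without the std pair and 1 with chromosomes centred, against 0 in the unpaired fit. The other Hippo pathway genes gave 12 with the block, 7 without pair 2, 7 without pair 3, 10 without pair std and 5 with chromosomes centred, and 1 by DESeq2. The other target genes gave 6 with the block, 4 without pair 2, 5 without pair 3, 4 without pair std and 7 centred. Over all 17297 genes the calls numbered 24 in the unpaired fit, 271 by DESeq2 and 5 by limma-trend, and with the block 3407, 2550 without pair 2, 2250 without pair 3, 3266 without pair std and 2402 centred. Between the library pairs the members called were 9, and 4 by limma-trend, 5 without pair 2 and 2 without pair 3. Member directions turned in 18 alternatives, in none of which the member passed: with the block, YAP1 without pair 2 (−0.0030), AMOTL2 without pair std (0.069) and with chromosomes centred (0.0077), and CTGF without pair 3 (−0.49), the others on leaving out single libraries. Leaving out each library gave log2 fold changes of −0.093 to 0.22 for YAP1, 0.0051 to 0.61 for WWTR1, −0.15 to 0.0080 for TEAD1, −0.26 to 0.052 for LATS2, −0.21 to 0.11 for AMOTL2, −0.072 to 0.28 for CYR61 and −0.62 to 0.85 for CTGF. RLE scaling and the filter on low counts moved no count of members between the lines. The causes were not tested.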
